A study of Mus musculus with 4 samples.

Results

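Endothelial cells line the blood vessels of the brain, and 870 endothelial nuclei among 32044 nuclei of the mouse hippocampus are described here. The members were chosen by their own measured RNA. A nucleus counted as endothelial when it held at least 500 unique molecular identifiers (UMIs, counted RNA molecules) with at most 5% from mitochondrial genes and UMIs of at least 3 of the 6 endothelial genes Flt1, Cldn5, Pecam1, Mecom, Ptprb and Adgrl4. It was allowed at most 1 of 7 marker genes of other cell types (Mog, Mag, Aqp4, Pdgfra, Inpp5d, Abcc9 and Atp13a5) and at most 3 UMIs of the neuronal genes Syt1 and Rbfox3 together. The 4 droplet libraries were made from frozen, pooled hippocampus. One came from wild-type mice (WT). A pair came from PS19 mice, a B6;C3 line in which the prion protein (Prnp) promoter drives 1N4R human tau (MAPT) with the P301S mutation, and serves as a model of tau pathology. The fourth, TG_PS19, came from PS19 mice that also carried SORLA-Rosa26, a transgene that overexpresses the sorting receptor SORLA (human SORL1) from a CMV/β-actin promoter and so in many cell types. The libraries held 353 endothelial nuclei in WT, 125 and 153 in PS19 replicates 1 and 2, and 239 in TG_PS19. The labels do not give the age, sex or number of the animals, nor whether each PS19 library had its own pool. WT and TG_PS19 had no replicate, so p-values rest only on the spread within the PS19 pair, pooled over genes, which may be technical.

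The endothelium of brain vessels forms the blood-brain barrier: tight junctions seal the cells to each other, carriers bring nutrients across them, and ATP-driven pumps return drugs and lipids to the blood. The cells change along the vessel, from arteries through capillaries to veins, and veins are the main site at which leukocytes attach. Endothelial cells also take up hormones from the blood directly, among them glucocorticoids, which act through a receptor that binds DNA. These statements are background and were not tested here.

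All 6 markers were abundant in the selected nuclei of every library, and their levels describe the selection because the rule used them. In the order WT, PS19 replicate 1, PS19 replicate 2 and TG_PS19, which holds for every set of 4 values below, the VEGF receptor gene Flt1 had 3509, 2768, 3315 and 3369 CPM (a gene's UMIs divided by all UMIs of a library's endothelial nuclei and multiplied by 1000000). The transcription factor gene Mecom had 2943, 3181, 4202 and 3781 CPM. The tight junction gene Cldn5 had 488, 545, 411 and 550.4 CPM, beside a mean of 4.18 CPM in all other nuclei. Endothelial genes that the rule did not read fit the label: 21 of them together reached 20717, 17066, 15033 and 20128 CPM in the nuclei with exactly 3 markers. In the nuclei just outside the rule, with 2 markers, the same genes had 4826, 3543, 1109 and 4875 CPM, and those nuclei numbered 42, 6, 4 and 17. Just inside it, 53, 16, 10 and 39 nuclei had 3 markers, and 65, 26, 40 and 30 had all 6. A further 38, 15, 13 and 32 nuclei with enough endothelial markers were left out for markers of other cell types, and 14, 3, 6 and 2 for neuronal UMIs. The endothelial nuclei held 590461, 234857, 342688 and 388789 UMIs in all, at medians of 1430, 1625, 1971 and 1350 UMIs per nucleus. Over all pairs of libraries 102 barcodes were shared, none of them endothelial.

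The share of endothelial nuclei was close in the 4 libraries. It was 2.77% in WT (exact 95% binomial interval 2.49 to 3.07), 2.69% (2.25 to 3.20) and 3.11% (2.64 to 3.63) in the PS19 libraries, and 2.46% (2.16 to 2.79) in TG_PS19. The WT value lay between the PS19 values. The TG_PS19 value lay 0.234 points below the lower PS19 value, less than the 0.416 points between the PS19 libraries, and the intervals, which cover counting error only, overlapped. The share was not tested. Thinned to 1000 UMIs per nucleus, the shares were 2.30%, 2.31%, 3.04% and 2.01%.

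**Figure D1:**
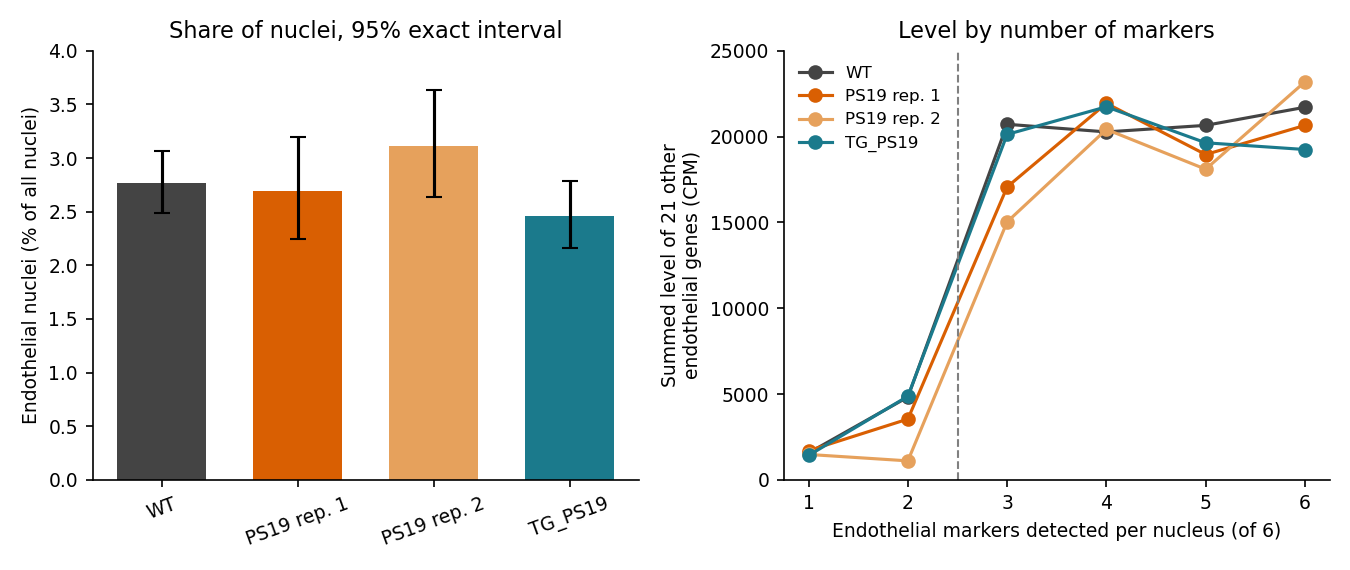
Left, share of endothelial nuclei per library in percent, bars with exact 95% binomial intervals; right, summed level in CPM of 21 endothelial genes that the rule did not read, by the number of the 6 markers detected in a nucleus, 1 line per library, with the rule's limit dashed. The shares lie between 2.46% and 3.11% with overlapping intervals, and the summed level steps up between 2 and 3 markers.

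RNA of other cell types was present in the endothelial nuclei and differed between libraries. The rule itself limited Mog, Mag, Aqp4, Pdgfra, Inpp5d, Abcc9, Atp13a5, Syt1 and Rbfox3. They are among the markers summed below, so every sum but the choroid plexus and fibroblast ones is in part set by the rule. The summed level of 6 astrocyte markers was 1387, 881, 511 and 1276 CPM, so both PS19 libraries lay below WT and TG_PS19. The 6 oligodendrocyte markers had 901, 600.4, 388 and 1152 CPM and the 6 neuronal markers 478, 200.1, 210.1 and 324 CPM, again with both PS19 libraries below WT and TG_PS19. The 4 choroid plexus markers had 59.3, 55.4, 75.9 and 553 CPM, highest in TG_PS19. The 7 mural markers had 141, 247, 87.5 and 95.2 CPM, with 0, 2, 2 and 2 of them at 0, and the 5 microglial markers 342, 409, 286 and 329 CPM. The 5 fibroblast markers had 94.8, 170.3, 213 and 82.3 CPM, and the 4 markers of oligodendrocyte precursors 168, 264, 155 and 46.3 CPM, lowest in TG_PS19. In all other nuclei the astrocyte markers had 3527, 2382, 2350 and 2844 CPM and the microglial markers 416, 411, 369 and 384 CPM. The fibroblast markers had 315, 265, 210 and 178 CPM there, and the choroid plexus markers 160, 265, 208 and 284 CPM. One marker of another cell type, which the rule allowed, was seen in 32.6%, 37.6%, 29.4% and 26.8% of endothelial nuclei. The part of this RNA in the results below was not tested, and its values are given again beside the groups of genes that moved with it most plainly.

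The SORLA transgene was read strongly in TG_PS19 endothelium. Human SORL1 had 0 UMIs in WT and in both PS19 libraries and 141 UMIs in TG_PS19, or 363 CPM (exact Poisson interval 305 to 428). Against the limit of 3 counts over the PS19 pair, 5.19 CPM, the 363 CPM of TG_PS19 was 69.8-fold higher. That ratio leaves out the counting error of the TG_PS19 value. SORL1 UMIs occurred in 80 of 239 nuclei (33.5%), and in 22.7% of nuclei thinned to 1000 UMIs. All TG_PS19 cells carry the transgene, so no cell type there gives its background from free RNA. The other TG_PS19 nuclei had 62.1 CPM, astrocytes 121 CPM (113 to 130) and mural nuclei, the contractile cells around the vessel, 224 CPM (177 to 279). By nucleus the classes lay closer, with SORL1 UMIs in 29.6% of astrocytes and 26.2% of mural nuclei. Their medians were 3008 and 1362.5 UMIs per nucleus, beside 1350 in endothelium.

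Within TG_PS19 the SORL1 level differed between endothelial nuclei of female and male type. Xist, the RNA of the inactive X chromosome, was found in 50.2% of TG_PS19 endothelial nuclei and in 0.283% of WT and 0.8% and 0% of PS19 nuclei, so the pool of TG_PS19 included females and the others showed few or no such nuclei. In the 113 nuclei with Xist and no Y-linked UMI, SORL1 reached 557 CPM (456 to 674). In the 33 nuclei with Y-linked UMIs and no Xist it had 5 UMIs, or 99.4 CPM (32.3 to 232), and the intervals did not overlap. Nuclei with neither, 86 in number, had 209 CPM (135 to 308). Mural nuclei gave 229 CPM (164 to 311) with Xist and 311 CPM (197 to 467) with Y-linked UMIs, with overlapping intervals. Astrocytes gave 161 and 72.9 CPM. All these nuclei came from 1 library, and the intervals cover counting error only. Sex and the SORLA transgene cannot be told apart in any comparison with TG_PS19.

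**Figure D2:**
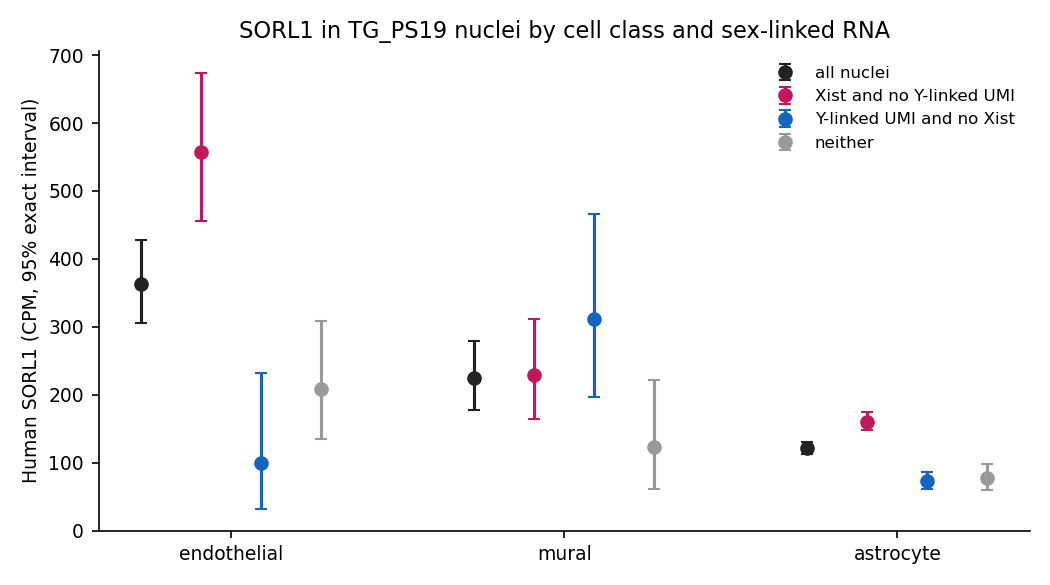
Level of human SORL1 in CPM with exact 95% Poisson intervals in TG_PS19 nuclei, by cell class and by the sex-linked RNA seen in a nucleus. Endothelial nuclei with Xist alone stand at 557 CPM and those with Y-linked UMIs alone at 99.4 CPM, while mural intervals overlap.

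Human MAPT was hardly seen in endothelium, with 0, 1, 1 and 1 UMIs, and so gives no check of the tau genotype there. Mouse Mapt had 54.2, 34.1, 14.6 and 72.0 CPM. Mouse Prnp, whose promoter drives the tau transgene, had 110.1, 68.1, 43.8 and 64.3 CPM, and its log2 fold change of PS19 against WT of −0.98 (SE 0.38, adjusted p 0.386) did not pass the test. Mouse Sorl1 had 14, 1, 2 and 2 UMIs, so that every library but WT lay under 3 counts. Reads that fit both the human and the mouse gene could be counted under either, which makes these low levels uncertain.

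PS19 endothelium differed from WT endothelium in 70 of 7881 genes tested (0.888%) by edgeR at an adjusted p below 0.05, with 22 genes higher (0.279%) and 48 lower (0.609%). These sets differed in where their RNA is abundant. The 22 higher genes had a median level 6.11 times that of all other nuclei (0.0893 to 205), and 18 of them were higher in endothelium than elsewhere. The 48 lower genes had a median of 0.185 times (0.0272 to 1.17), and 47 of them had more RNA in astrocytes than in endothelium. Of all tested genes, 67.8% had their higher level in endothelium, and calls were made in 0.355% of these and in 2.01% of the rest. An unadjusted p below 0.05 was reached by 579 genes. DESeq2 called 0 genes, with 41 at an unadjusted p below 0.05, so every call of this comparison rests on the edgeR fit, in which all genes of one abundance shared one spread. With at least 4 markers per nucleus edgeR called 23 genes, 5 of them higher (Zbtb16, Coro2a, Serinc3, Xdh and Fkbp5), and with no marker of another cell type it called 34, 13 of them higher.

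**Figure D3:**
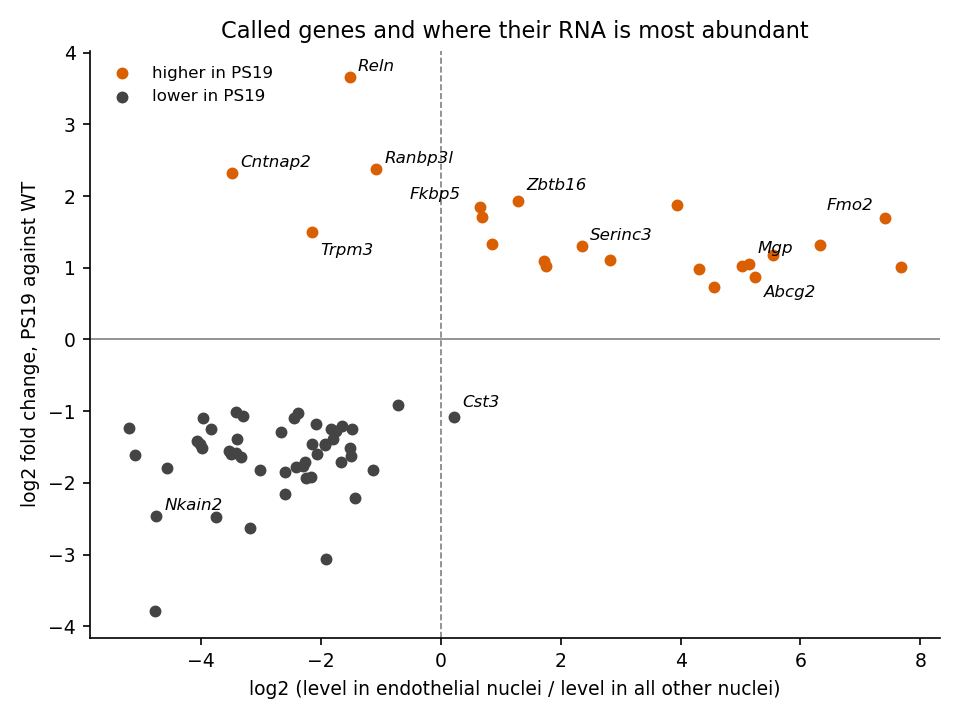
Log2 fold change of PS19 against WT of the 70 called genes (y axis) against the log2 ratio of a gene's mean level in endothelial nuclei to that in all other nuclei (x axis), 1 point per gene. Of the 22 higher genes 18 lie right of the dashed line of equal level, and of the 48 lower genes 1, Cst3, does.

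Of the list of glucocorticoid response and clock genes, Zbtb16 and Fkbp5 were called higher. Zbtb16, a zinc finger transcription factor gene that glucocorticoids induce, had 154, 536, 607 and 491 CPM, and WT lay below the other 3 libraries. It rose in PS19 by a log2 fold change of 1.94 (SE 0.29, adjusted p 9.92e-08, edgeR). Fkbp5, which encodes a co-chaperone that binds the glucocorticoid receptor and is itself a target of that receptor, had 44.0, 132, 172 and 134 CPM and rose by 1.84 (SE 0.38, adjusted p 0.00048). Both were also higher in TG_PS19 than in WT: Zbtb16 by 1.74 (SE 0.32, adjusted p 6.69e-05) and Fkbp5 by 1.66 (SE 0.42, adjusted p 0.0255). Between TG_PS19 and PS19, Zbtb16 gave −0.20 (SE 0.26, adjusted p 0.984) and Fkbp5 gave −0.18 (SE 0.34, adjusted p 0.988). Both genes had RNA in other cells too, with means of 184 and 76.7 CPM in all other nuclei. Zbtb16 lies at chr9:48654297-48836222 and Fkbp5 at chr17:28399094-28517527 (mouse build GRCm38).

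Most of the other higher genes had their higher level in endothelium. Fmo2, a flavin monooxygenase gene at chr1:162874317-162898726, had 88.1, 204, 338 and 224 CPM against 1.25 CPM in other nuclei. It rose in PS19 by 1.69 (SE 0.32, adjusted p 8.57e-05) and was higher in TG_PS19 than in WT by 1.41 (adjusted p 0.0243). Coro2a, a coronin gene of the actin cytoskeleton, had 54.2, 217, 175 and 162 CPM and rose by 1.88 (SE 0.36, adjusted p 8.57e-05). In both genes WT was the lowest library and TG_PS19 stood near the PS19 pair. Xdh, which encodes xanthine dehydrogenase of purine breakdown, had 136, 285, 365 and 262 CPM and rose by 1.32 (SE 0.30, adjusted p 0.00328). Serinc3, which encodes a membrane protein with many transmembrane segments, had 246, 596, 584 and 373 CPM and rose by 1.30 (SE 0.28, adjusted p 0.000874).

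Abcg2, the breast cancer resistance protein pump that returns drugs to the blood, was the 1 called member of the list of efflux pumps. It had 596, 1069, 1059 and 1039 CPM, so that WT lay below 3 libraries that agree closely. The rise in PS19 was 0.88 (SE 0.23, adjusted p 0.0208). Its call was lost without the low-count filter, with at least 4 markers and with no Syt1 or Rbfox3 UMI, where the values were 0.86, 0.90 and 0.85, and with DESeq2. The value for TG_PS19 against PS19 was −0.01 (adjusted p 0.997). The gene lies at chr6:58584523-58695676, and other nuclei had 24.8 CPM. Of the 9 tested members of this list, 7 had a positive value in PS19 with a median of 0.24, beside 0.02 over all tested genes. The other main pump of the barrier, P-glycoprotein (Abcb1a), had 711, 818, 794 and 846 CPM with a value of 0.22 (SE 0.23, adjusted p 0.978). Abcc4 had 881, 877, 1144 and 749 CPM.

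Sgms1, the gene of an enzyme that makes sphingomyelin, was the most abundant of the 22 genes, with 2085, 3287, 3423 and 3303 CPM and a rise of 0.73 (SE 0.17, adjusted p 0.0056). Acer2, a ceramidase gene, had 203, 507, 394 and 465 CPM and rose by 1.18 (SE 0.29, adjusted p 0.00721). For Sgms1 and Acer2 the TG_PS19 library was also called above WT. Tbc1d4, which governs insulin-driven movement of glucose transporters, had 547, 1039, 1121 and 905 CPM and rose by 1.02 (SE 0.24, adjusted p 0.00331). The receptor genes Adipor2 and Paqr5 rose by 1.09 (adjusted p 0.00294) and 1.00 (adjusted p 0.00331), and Paqr5 had 635, 1333, 1149.7 and 797 CPM. Mgp, which encodes a matrix protein of arteries that prevents calcification, had 269, 720, 388 and 826 CPM and rose by 1.06 (SE 0.27, adjusted p 0.012). Single nuclei held 89 of the 169 Mgp UMIs of PS19 replicate 1 and 97 of the 321 of TG_PS19, and without the top nucleus of each library its levels were 240, 345, 361 and 580 CPM. Fam13a, Myrip, Ccnd3 and Ankrd13a were also called, with values from 1.03 to 1.71.

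In 4 of the 22 higher genes at least 50% of the UMIs of the highest library came from 1 nucleus. Reln had 6.77, 17.0, 143 and 2.57 CPM, and all 49 of its UMIs in PS19 replicate 2 came from a single nucleus. Cntnap2 had 65 of 74 UMIs of that library in 1 nucleus, and Trpm3 had 200 of 317. Trpm3 also split the PS19 pair, with 183, 25.5, 925 and 409 CPM. Ranbp3l, a fibroblast marker, was the fourth gene, with 16.9, 55.4, 111 and 33.4 CPM. The levels of these 4 genes thus largely describe single nuclei.

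The 22 higher genes were followed into TG_PS19 by level alone. The comparisons share the PS19 libraries and the 1 WT library in which these genes were chosen as low, so the counts over WT that follow are in part set by that choice. TG_PS19 was above WT for 20 of them, below both PS19 libraries for 16, between them for 5 and above both for 1. Of the 22, 8 were also called higher in TG_PS19 than in WT. Against PS19 only Reln and Cntnap2 of the 22 were called, both of which had most UMIs of their highest library in 1 nucleus.

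**Figure D4:**
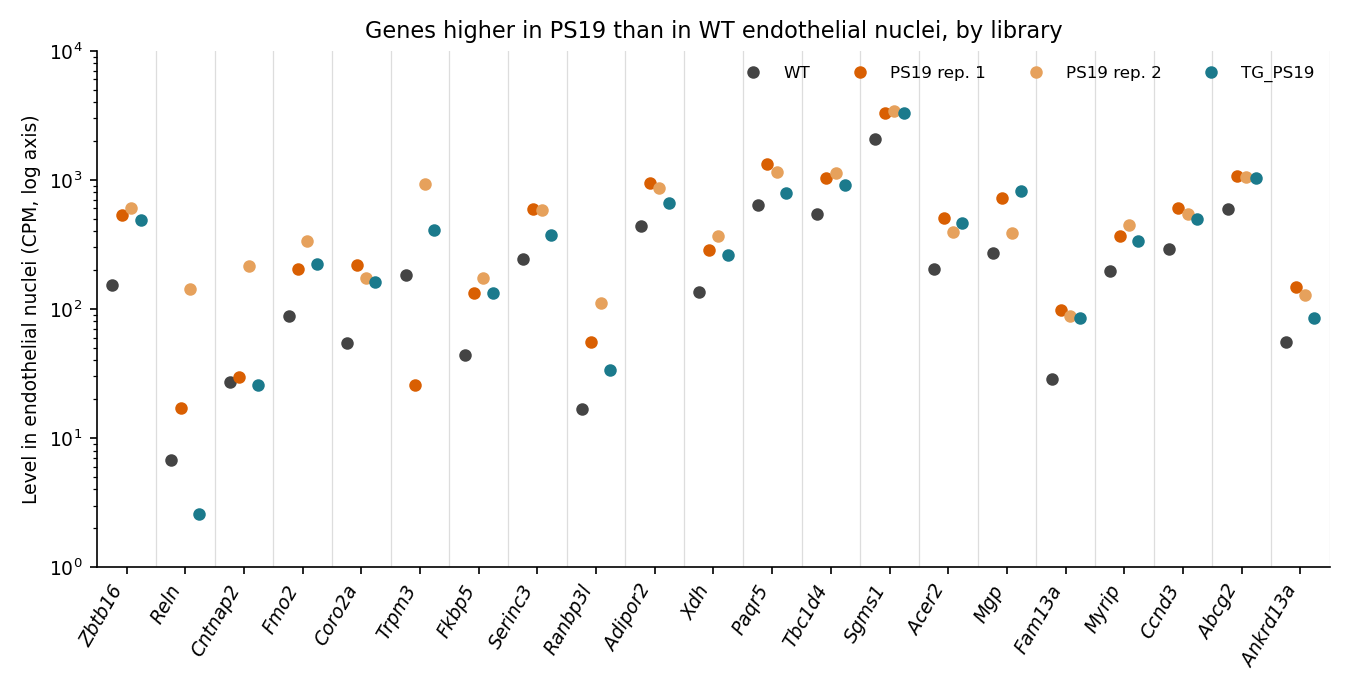
Level in CPM, on a log axis, of the genes named here that were called higher in PS19 than WT, 1 point per library, ordered by p. WT is the lowest library for all genes drawn but Reln, Cntnap2 and Trpm3, and TG_PS19 lies below both PS19 libraries for most of them.

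Promoters were examined because Zbtb16 and Fkbp5 belong to the glucocorticoid response. A window of 250 bases before to 50 bases after the start was found for 18 of the 22 higher genes, 29 windows in all (RefSeq, GRCm38.p6). The half-site of the glucocorticoid receptor, AGAACA on either strand, was present in 3 windows (10.3%), those of Coro2a, Fmo2 and Tbc1d4, and in 6233 of all 32851 windows (19.0%). The palindromic form of the receptor's element, GNACA and TGTNC with any 3 bases between them, was present in 0 of 29 and in 0.475% of all windows. The E-box CACGTG, which clock factors bind, was present in 2 windows (6.90%), those of Fkbp5 and Reln, and in 7.15% of all. None of the 3 motifs was thus more frequent in these windows than in all promoters, and letters outside the windows were not searched. The windows of 3 called genes are shown because their motifs differ, all from the minus strand and 5′ to 3′, with the match in capitals: Fkbp5 at chr17:28486100-28486399 with the E-box, and Fmo2 at chr1:162898444-162898743 and Coro2a at chr4:46566391-46566690 with the half-site, which reads TGTTCT in Coro2a.
Fkbp5: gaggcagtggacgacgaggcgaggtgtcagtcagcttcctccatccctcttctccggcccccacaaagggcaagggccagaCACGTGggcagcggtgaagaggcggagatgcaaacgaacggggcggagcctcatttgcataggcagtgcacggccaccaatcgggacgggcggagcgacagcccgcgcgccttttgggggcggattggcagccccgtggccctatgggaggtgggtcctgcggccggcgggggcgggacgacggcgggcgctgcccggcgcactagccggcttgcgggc
Fmo2: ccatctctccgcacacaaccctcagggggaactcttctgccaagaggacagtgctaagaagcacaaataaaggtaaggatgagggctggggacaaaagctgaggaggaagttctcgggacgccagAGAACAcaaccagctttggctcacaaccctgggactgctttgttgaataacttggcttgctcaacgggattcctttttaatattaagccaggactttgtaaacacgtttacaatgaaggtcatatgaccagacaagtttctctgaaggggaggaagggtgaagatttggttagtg
Coro2a: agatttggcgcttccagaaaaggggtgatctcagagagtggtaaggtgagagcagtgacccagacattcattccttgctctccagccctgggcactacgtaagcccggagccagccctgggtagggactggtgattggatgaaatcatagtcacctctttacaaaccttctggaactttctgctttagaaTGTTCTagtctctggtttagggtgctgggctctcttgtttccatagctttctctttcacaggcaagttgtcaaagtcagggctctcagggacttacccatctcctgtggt

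The genes lower in PS19 than WT mostly had more RNA in other nuclei. Nkain2, a gene of a membrane protein that binds the sodium pump, had 256, 29.8, 55.4 and 334 CPM and fell by 2.47 on the log2 scale (SE 0.35, adjusted p 8.45e-09). Both PS19 libraries lay far below WT and TG_PS19, beside 4544 CPM in all other nuclei. A single nucleus held 77 of its TG_PS19 UMIs, over 50% of them, and without the top nucleus of each library the levels were 195, 21.4, 49.95 and 139 CPM. With St18 and Chrm3 it made up 3 of the 48 lower genes with that share of UMIs in 1 nucleus of their highest library. Gabrb1, a GABA receptor subunit gene, had 330.2, 136, 23.3 and 311 CPM and fell by 2.15 (SE 0.32, adjusted p 3.49e-08). The cell adhesion gene Lsamp had 1844, 996, 493 and 1597 CPM and fell by 1.29 (SE 0.21, adjusted p 7.32e-07). Gpc5, a glypican gene, had 816, 481, 149 and 777 CPM and fell by 1.39 (SE 0.25, adjusted p 2.53e-05). The adhesion genes Ntm, Cadm2 and Ncam1, the transcription factor gene Npas3 and the glutamate receptor gene Gria2 also fell, with values of −1.59, −1.39, −1.82, −1.72 and −1.64. In each of these 9 genes the level in other nuclei exceeded that in endothelium.

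Cst3, the gene of the secreted protease inhibitor cystatin C, was the 1 lower gene with a higher level in endothelium than in all other nuclei. It had 1575, 826, 624 and 1271 CPM and fell by 1.09 (SE 0.21, adjusted p 0.000164). TG_PS19 was above PS19 by 0.84 (SE 0.22, adjusted p 0.0193). The summed astrocyte markers moved in the same order, 1387, 881, 511 and 1276 CPM, with the astrocyte glutamate transporter genes Slc1a2 and Slc1a3 among the called genes. Oligodendrocyte and neuronal markers were likewise lower in both PS19 libraries. Their part in these calls was not tested.

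TG_PS19 endothelium differed from PS19 endothelium in 56 of 7881 genes (0.711%), with 49 higher (0.622%) and 7 lower (0.0888%). An unadjusted p below 0.05 was reached by 541 genes, and DESeq2 called 4: Xist, SORL1, Htr2c and Nkain2. The 49 higher genes had a median level 0.317 times that of other nuclei, and 30 of them had more RNA in astrocytes than in endothelium. There were 17 genes called lower in PS19 than WT and also higher in TG_PS19 than PS19, 17 of 48 and 17 of 49, and both calls use the same PS19 libraries. Nkain2 was among them with a value of 2.92 (SE 0.35, adjusted p 8.38e-14) for TG_PS19 against PS19, which went to 1.62 without the nuclei of highest UMIs and, with its call lost, to 1.03 with no marker of another cell type. Gabrb1 had 2.13 (adjusted p 7.84e-08), Cadm2 1.67 (adjusted p 1.89e-06) and Gpc5 1.38 (adjusted p 1.95e-05). Their TG_PS19 levels lay near those of WT, as did the astrocyte marker sum. The part of that RNA was not tested.

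Endothelium held the higher level for 16 of the 49 genes called higher in TG_PS19 than PS19 and for 2 of the 7 lower ones. Not all of these are named. Vegfc, the gene of a growth factor that arterial endothelium makes, at chr8:54077606-54187096, had 290, 124, 239 and 383 CPM, beside 10.2 CPM in other nuclei. TG_PS19 was above PS19 by 1.06 (SE 0.29, adjusted p 0.0369), and PS19 against WT gave −0.59 (SE 0.28, adjusted p 0.62). Gm20631, a gene with no assigned name, had 168, 72.4, 137 and 378 CPM, beside 3.06 CPM in other nuclei. It was higher in TG_PS19 than PS19 by 1.82 (SE 0.30, adjusted p 1.14e-06) and higher than WT by 1.24 (SE 0.32, adjusted p 0.0268). For both genes TG_PS19 was the highest library. Wdr17 had 876, 490, 417 and 1173 CPM and a value of 1.40 (adjusted p 1.14e-06). Pcdh9, a protocadherin gene, had 677, 481, 172 and 947 CPM and a value of 1.61 (adjusted p 8.88e-08), and Gm20713, also without an assigned name, had 134, 34.1, 43.8 and 275 CPM and 2.81 (adjusted p 2.31e-11). These 3 had more RNA in other nuclei. In the 33 TG_PS19 nuclei that held Y-linked UMIs and no Xist, Wdr17 had 19 UMIs, or 378 CPM (227 to 590), an interval that holds both PS19 levels. Gabrb1 had 2 UMIs and Gm20713 had 0 there, too few to give a direction against PS19. In the 113 nuclei with Xist alone, Wdr17 had 1385 CPM (1222 to 1563). The call of Vegfc, but not its direction, was lost with at least 4 markers, without the low-count filter, after thinning, with DESeq2 and with either set of sex-typed TG_PS19 nuclei.

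Dbp, a transcription factor gene that the circadian clock drives, was called lower in TG_PS19 than in PS19. It lies at chr7:45705088-45710203 and had 38.9, 89.4, 102 and 23.2 CPM. TG_PS19 lay below all other libraries, and the value against PS19 was −2.02 (SE 0.51, adjusted p 0.0143). Dbp was not called for TG_PS19 against WT. In the TG_PS19 nuclei with Xist alone it had 7 UMIs, or 37.1 CPM (14.9 to 76.5), near the 38.9 CPM of WT. PS19 against WT gave 1.34 (SE 0.42, adjusted p 0.0917). Rab40c, a GTPase gene, had 91.5, 111, 123 and 36.0 CPM and fell by 1.67 (SE 0.45, adjusted p 0.0357). Both calls, but not their direction, were lost with at least 4 markers, without the low-count filter, after thinning, with DESeq2 and with Y-linked TG_PS19 nuclei alone, where Dbp had 0 UMIs. The Dbp call was also lost with Xist nuclei alone (−1.35), and that of Rab40c with no Syt1 or Rbfox3 UMI and without the nuclei of highest UMIs. The other lower genes were Reln and Cntnap2, the oligodendrocyte precursor marker Lhfpl3 (115, 209, 87.5 and 15.4 CPM) and the Y-linked genes Eif2s3y and Uty.

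Several of the higher genes of TG_PS19 came from single nuclei with RNA of other cell types. Htr2c, a serotonin receptor gene of choroid plexus, had 5.08, 0, 5.84 and 350 CPM, and 135 of its 136 TG_PS19 UMIs were in 1 nucleus. Ttr, the gene of the choroid plexus product transthyretin, had 30.5, 34.1, 55.4 and 185 CPM, with 42 of 72 UMIs in 1 nucleus. The oligodendrocyte genes Mbp and St18 had 54.2, 12.8, 23.3 and 134 CPM, and 28.8, 0, 2.92 and 116 CPM. In all, 7 of the 49 higher and 3 of the 7 lower genes had at least 50% of the UMIs of their highest library in 1 nucleus.

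TG_PS19 differed from WT in 37 of 7881 genes (0.469%), with 28 higher (0.355%) and 9 lower (0.114%), and 432 genes reached an unadjusted p below 0.05. With library totals in place of TMM scaling the split was 19 higher of 29. DESeq2 called 3, Xist, Htr2c and SORL1. Bmx, a tyrosine kinase gene of arterial endothelium, had 114, 226, 242 and 298 CPM, beside 0.689 CPM in other nuclei, and WT was the lowest library. TG_PS19 was higher than WT by 1.46 (SE 0.34, adjusted p 0.0084), and PS19 against WT gave 1.09 (SE 0.31, adjusted p 0.0505). Mgp was higher by 1.68 (SE 0.29, adjusted p 1.58e-05). Within TG_PS19 it had 1268 CPM (1112 to 1439) in the nuclei with Xist alone and 6 UMIs, or 119 CPM (43.8 to 260), in those with Y-linked UMIs alone. The single nucleus that held many of its TG_PS19 UMIs, described above, was not left out of this split. The intervals do not cover such clustering. The insulin-like growth factor receptor gene Igf1r had 1741, 2691, 2512 and 2953 CPM and a value of 0.83 (SE 0.21, adjusted p 0.0213), with 0.62 (adjusted p 0.0618) for PS19 against WT. Rundc3b, an abundant endothelial gene, had 3072, 3606, 3957 and 5085 CPM and a value of 0.79 (SE 0.18, adjusted p 0.00766). The lower genes were led by Lhfpl3, Adarb2, Brinp3, Sox2ot and Anks1b, with values of −2.81, −2.56, −2.84, −2.06 and −1.98, and all had higher levels in other nuclei.

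In each comparison 1 or 2 of the 8 tested genes of the arterial end of the vessel were called. The summed arterial list had 1079, 1533, 1307 and 2091 CPM, so TG_PS19 stood above the other 3 libraries, and Mgp gave 269, 720, 388 and 826 CPM of it. Of 8 tested members, 7 had a positive value for TG_PS19 against PS19 with a median of 0.56, and 7 for TG_PS19 against WT with a median of 0.68, beside −0.02 and 0.01 over all tested genes. The called members were Mgp for PS19 against WT, where 0.888% of all tested genes were called, and Vegfc for TG_PS19 against PS19 (0.711%). For TG_PS19 against WT (0.469%) they were Bmx and Mgp. The venous list had 2088, 2572, 2962 and 1947 CPM, lowest in TG_PS19. Of its 7 tested members, 6 were positive for PS19 against WT (median 0.52) and 1 for TG_PS19 against PS19 (median −0.54), and none was called in any comparison. Vwf, the gene of von Willebrand factor, had 716, 856, 896 and 592 CPM, the venous transcription factor gene Nr2f2 had 269, 294, 204 and 136 CPM, and the amino acid carrier gene Slc38a5 had 125, 141, 152 and 84.9 CPM. The capillary list had 2036, 2559, 2049 and 2225 CPM with no called member.

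Counted by nucleus after thinning to 1000 UMIs, arterial-list UMIs were seen in 32.9%, 30.6%, 41.5% and 41.6% of nuclei and venous-list UMIs in 66.8%, 74.8%, 70.1% and 61.6%. Nuclei with venous genes alone made up 44.4%, 51.4%, 39.5% and 34.1%. For the arterial share and for venous genes alone, the PS19 libraries differed from each other by more than PS19 replicate 2 did from TG_PS19. Thinning left out 67, 14, 6 and 54 nuclei.

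**Figure D5:**
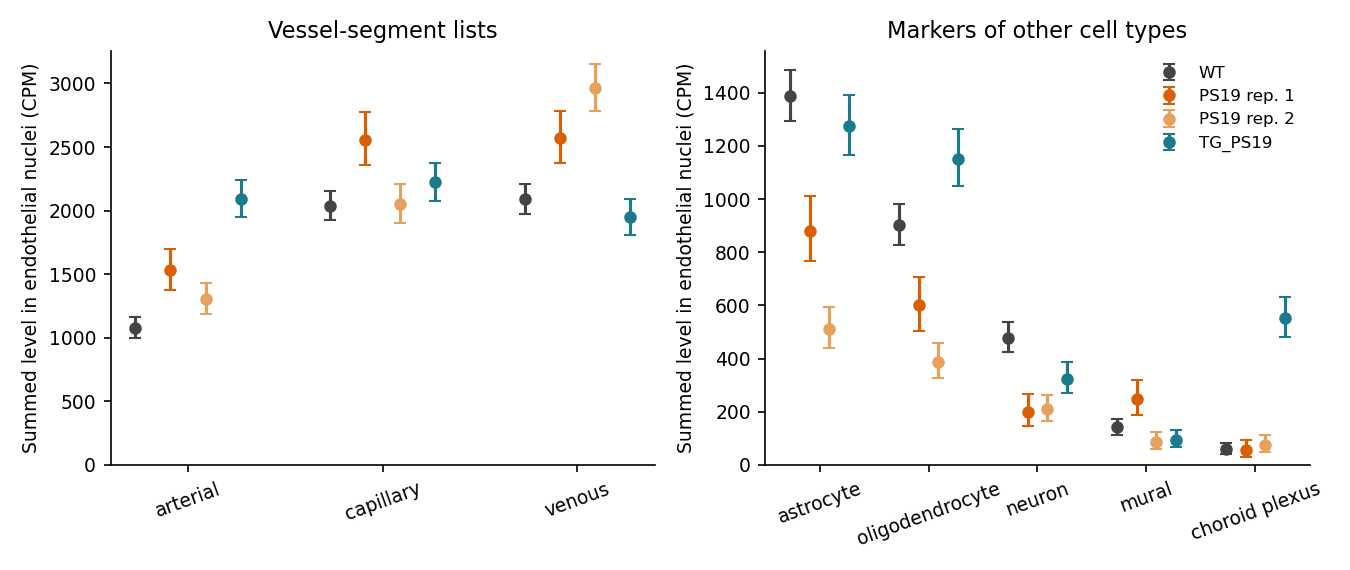
Summed levels in CPM of the arterial, capillary and venous gene lists and of marker lists of other cell types in endothelial nuclei, 1 point per library with exact 95% Poisson intervals, which cover counting error only. TG_PS19 is the highest library for the arterial list at 2091 CPM, and both PS19 libraries lie below WT and TG_PS19 for astrocyte markers.

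Genes of leukocyte adhesion and activation had mostly positive values in PS19, none of them called. Of 20 tested members 18 were positive for PS19 against WT, with a median of 0.32, and 6 for TG_PS19 against PS19, with a median of −0.52, beside 51.9% and 48.3% of all tested genes. The fibroblast markers, with 94.8, 170.3, 213 and 82.3 CPM, were likewise highest in the PS19 libraries, as was the venous list, and their part in either was not tested. Il1r1, the interleukin 1 receptor gene, had 660.5, 898, 1167 and 707 CPM, and its value in PS19 was 0.69 (SE 0.23, adjusted p 0.171). Icam1, whose product holds leukocytes to the wall, had 88.1, 97.9, 166 and 56.6 CPM, and TG_PS19 against PS19 gave −1.24 (SE 0.40, adjusted p 0.174). Vcam1, with a like role, had 213, 247, 338 and 334 CPM, so its TG_PS19 level did not lie below PS19. The signal gene Stat3 had 171, 268, 257 and 139 CPM. The summed list was also highest in the PS19 libraries in mural nuclei, with 924, 1336, 1131 and 908 CPM, and in astrocytes, with 611, 895, 837 and 483 CPM. Il1r1, Icam1, Vcam1 and Vwf are also members of the venous list.

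The interferon and MHC class I list also had mostly positive values in PS19. Of 23 tested members, 17 were positive for PS19 against WT (median 0.38) and 7 for TG_PS19 against PS19 (median −0.18), and none was called. Over all tested genes 51.9% and 48.3% were positive, with medians of 0.02 and −0.02. The pattern was not particular to endothelium. The summed list had 529, 712, 582 and 400 CPM in mural nuclei, 326, 619, 461 and 228 CPM in astrocytes, and 223, 392, 323 and 178 CPM in all other nuclei. H2-D1, a class I antigen presentation gene, had 486, 783, 537 and 543 CPM. H2-K1, its neighbour in function, had 218, 375, 318 and 193 CPM, and B2m, the light chain gene, had 71.1, 128, 117 and 97.7 CPM. These gene copies resemble each other, so reads of H2-D1 and H2-K1 may be shared between them.

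In the list of glucocorticoid response and clock genes, 17 of 22 tested members were positive for PS19 against WT (median 0.61), 4 for TG_PS19 against PS19 (median −0.27) and 14 for TG_PS19 against WT (median 0.14). Over all tested genes 51.9%, 48.3% and 50.2% were positive, with medians of 0.02, −0.02 and 0.01. Zbtb16 and Fkbp5 were called for PS19 against WT, where 0.888% of all tested genes were called, and for TG_PS19 against WT (0.469%). Dbp was called for TG_PS19 against PS19 (0.711%). The list was chosen with earlier results of these data known. The clock genes Per3, with 103, 221, 193 and 103 CPM, and Ciart, with 13.6, 55.4, 61.3 and 20.6 CPM, had values of 1.03 (SE 0.32, adjusted p 0.0886) and 2.13 (SE 0.64, adjusted p 0.0726) in PS19. Neither passed the test. Tsc22d3, a glucocorticoid target gene, had 44.0, 106, 90.5 and 87.5 CPM and a value of 1.18 (SE 0.41, adjusted p 0.196). Nr3c1, the glucocorticoid receptor gene, had 478, 336, 324 and 370 CPM. The time of day at which tissue was taken is not stated in the labels.

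The barrier itself showed no called gene in 2 of its gene groups. Of 14 tested tight and adherens junction genes, 8, 7 and 8 were positive in the 3 comparisons (PS19 against WT, TG_PS19 against PS19 and TG_PS19 against WT), with medians of 0.02, 0.05 and 0.10. The scaffold gene Tjp1 had 2440.5, 2819, 2901 and 2657 CPM, the junction gene Ocln had 329, 298, 417 and 401 CPM, and Cdh5 (VE-cadherin) had 193, 187, 181 and 198 CPM. Of 22 nutrient and hormone carriers, 15, 10 and 12 were positive, with medians of 0.10, −0.06 and 0.06. Slco1a4, an organic anion carrier, had 3172, 3892, 3724 and 3213 CPM and a value of 0.30 (SE 0.16, adjusted p 0.734) in PS19. The glucose transporter gene Slc2a1 (GLUT1) had 899, 1077, 1009.7 and 766 CPM, and the taurine carrier gene Slc6a6 had 1599, 1282, 1479 and 1209 CPM. A p that misses the threshold does not show that these levels were equal.

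Signalling groups gave few calls. Of 16 tested VEGF and TIE genes, 5, 8 and 7 were positive with medians of −0.14, −0.03 and −0.08, and Vegfc was the 1 called member. Egfl7 had 1423, 1414, 1158 and 859 CPM, the angiopoietin receptor gene Tek 1389, 796, 1071 and 875 CPM, and the VEGF receptor gene Kdr 235, 128, 158 and 131 CPM, with WT the highest library for each. Flt1, a member of this list, was read by the selection rule. Of 22 Wnt genes, which maintain the barrier, 14, 12 and 10 were positive with no call, and Lef1 had 1479, 1652, 1789 and 1433 CPM. Of 17 caveolae and transcytosis genes, 5, 11 and 8 were positive, and Igf1r was the 1 called member; the insulin receptor gene Insr had 506, 485, 496 and 494 CPM. The 20 basement membrane genes gave 7, 9 and 4 positive values and no call. The collagen gene Col4a1 had 202, 106, 99.2 and 160 CPM, with both PS19 libraries below the others and a value of −0.93 (SE 0.31, adjusted p 0.171).

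In the list of SORLA, related sorting receptors and retromer, 13, 9 and 10 of 22 tested members were positive, and human SORL1 was the 1 called gene. App, the amyloid precursor gene and a SORLA cargo, had 1128, 1243, 1226 and 1011 CPM, with −0.26 (SE 0.22, adjusted p 0.946) for TG_PS19 against PS19. Apoe, the gene of a lipoprotein that astrocytes make in quantity, had 1521, 1120, 840.4 and 1278 CPM, the order of the astrocyte markers. The lists of Notch, BMP and TGF-beta, endothelial transcription factors, vasoactive, hypoxia, heat shock, immediate early and cell cycle genes held no called member in any comparison. Their medians for PS19 against WT ran from −0.32 (heat shock, 13 tested) to 0.27 (hypoxia, 12 tested). The 24 pan-endothelial genes, 3 of them read by the rule, had medians of 0.01, 0.02 and −0.04, and the abundant phosphatase gene Ptprg had 5228, 4505, 4873 and 5232 CPM.

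Whether these differences were particular to endothelium was tested against 7094 astrocyte and 908 mural nuclei of the same libraries, with library as a block. No gene was called (0% of 7731 genes for astrocytes and 0% of 6738 for mural nuclei, in both PS19 against WT and TG_PS19 against PS19). Unadjusted p-values below 0.05 were reached by 540 and 427 genes against astrocytes and by 236 and 228 against mural nuclei. The endothelial PS19 effect exceeded that of astrocytes by 0.72 for Zbtb16 (adjusted p 0.598), 0.34 for Fkbp5 (adjusted p 0.926) and 0.74 for Abcg2 (adjusted p 0.609). Larger differences, which also missed the threshold, were found for Serinc3 at 1.62 (adjusted p 0.145), Mgp at 1.84 (adjusted p 0.194), Coro2a at 1.46 (adjusted p 0.712) and Fmo2 at 2.40 (adjusted p 0.405). Against mural nuclei Zbtb16 gave 0.46, Fkbp5 −0.15, Abcg2 1.02 and Serinc3 1.19, all at an adjusted p of 0.999. Among the lower genes Cst3 gave −0.71 against astrocytes (adjusted p 0.792) and −0.14 against mural nuclei, and Nkain2 −0.64 and −0.52. For TG_PS19 against PS19, Vegfc gave 0.23 against astrocytes (adjusted p 0.951) and Dbp −1.26 (adjusted p 0.841), with −1.32 against mural nuclei (adjusted p 0.999). Without the library block, 67 and 26 genes were called against astrocytes.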

How the data were processed

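UMI counts per gene and nucleus were deposited by the authors for 4 libraries, made with Cell Ranger 7.1.0 on mouse build GRCm38 per the submitters' processing notes and the file headers; counting of intron reads is not given in the sources used here. Groups came from the labels. Of all barcodes 1, 1, 2 and 0 failed the limits on UMIs and mitochondrial share. The members and gene lists were chosen with earlier results of these data known.

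Raw counts of endothelial nuclei were summed per library and fitted under R 4.3.3 by edgeR 4.0.16, which builds on limma 3.58.1 (low-count filter, TMM scaling, legacy quasi-likelihood F-test, two-sided, Benjamini-Hochberg over 7881 genes at 0.05). The PS19 pair gave 1 residual degree of freedom, and WT and TG_PS19 were assumed to vary like it. The prior outweighed each gene's own spread, so a gene on which the PS19 libraries disagreed got no larger error. The pair differed by more than sampling noise (chi-square per degree of freedom 1.79 over 5392 genes with at least 20 counts). The fit was tested on simulated data. The simulation gave every gene and library the same spread, so it could not check whether WT and TG_PS19 vary like the PS19 pair. DESeq2 1.42.0 was an alternative, and others changed scaling, filter, thinning to 1000 UMIs and membership. Nuclei were selected with Python 3.11.15. No doublet caller was run, and an alternative left out the highest 5% of UMIs.

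Genes named were the 10 called genes of smallest p in each direction (5 for TG_PS19 against WT), without sex-linked genes and genes the rule reads, called list members and the most abundant list members. Further genes were named after their values had been seen, and 1 called gene is not reported here. Intervals are exact at 95% and cover counting error only; a count of 0 allows 3 counts. Gene positions are from GENCODE M21, and promoters from RefSeq.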

Additional observations from a re-analysis of the deposited data

How the results depend on the processing

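Direction held for 70 of 70 PS19 against WT calls and 56 of 56 TG_PS19 against PS19 calls under other scalings, no filter and robust or adjusted fits. Those settings used the same library sums, so direction could hardly change. With no marker of other cell types it held for 65 of 68 PS19 against WT and 54 of 54 TG_PS19 against PS19 calls. Without the highest 5% of UMIs it held for 66 of 67 and 52 of 53, and with at least 2 markers for 69 of 70 and 56 of 56. All tested calls kept it with at least 4 markers, with no Syt1 or Rbfox3 UMI and after thinning. Counts of called genes moved by over 1.5 times as follows. PS19 against WT (70) gave 23 with at least 4 endothelial markers, 202 with at least 2, 34 with no marker of other cell types, 0 with DESeq2 and 19 among genes with a higher level in endothelium, a split chosen after seeing the data. TG_PS19 against PS19 (56) gave 20, 98, 35 thinned, 23 with Y-linked TG_PS19 nuclei alone, 87 without the highest 5% of UMIs, 4 with DESeq2 and 18 at endothelial levels. The 23 calls from the 33 Y-linked nuclei were mostly other genes. Of the 56 main calls 51 could be tested there, 27 kept their direction and 2 were called in it. TG_PS19 against WT (37) gave 17 without a filter, 5 with at least 4 markers, 15 with no other marker, 12 with no Syt1 or Rbfox3 UMI, 18 thinned, 58 with Xist nuclei alone, 3 with DESeq2 and 20 at endothelial levels. With Y-linked TG_PS19 nuclei alone, 31 of these 37 could be tested, 21 kept their direction and 2 were called in it. The differences from astrocytes (0) gave 3 with library totals, 41 and 24 without a filter and 67 and 26 without the library block, and those from mural nuclei 3 and 10 without a filter and 2 without the block. The share of TG_PS19 minus PS19 was −0.14 points with no other marker. Zbtb16, Coro2a, Serinc3, Xdh and Fkbp5 were called in PS19 with at least 4 markers and with no marker of other cell types.

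Some genes reversed. Cntnap2 gave −0.24 (PS19 against WT) and 0.0013 (TG_PS19 against PS19) without the highest 5% of UMIs, and Ranbp3l −1.30 with no other marker. Trpm3 gave −0.19 with at least 2 markers, −1.26 with no other marker, and from −2.79 to 2.37 with 1 PS19 library left out. With Y-linked TG_PS19 nuclei alone, Gabrb1 gave −0.98, Gm20713 −6.63 and Wdr17 −0.39 against PS19, and Mgp −1.27 against WT, on 2, 0, 19 and 6 TG_PS19 UMIs, so the −6.63 rests on a count of 0 and is no size. The cause of the other reversals was not tested. Without PS19 replicate 1 or 2 no residual degree of freedom is left, so values have no test. The PS19 library kept in had helped to choose the called genes, so a kept direction is largely set by that choice. Direction was kept by 70 of 70 and 68 of 69 PS19 against WT calls, and by 56 of 56 and 55 of 55 of TG_PS19 against PS19. The share of PS19 minus WT then ran from −0.073 to 0.342 points, and TG_PS19 minus PS19 from −0.649 to −0.234. No paired analysis was possible because only PS19 has replicate numbers. With 125 to 353 nuclei per library, depth limits what can be seen in genes of low level.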
